A study of Homo sapiens with 24 samples.

Results

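The major histocompatibility complex (MHC) on the short arm of chromosome 6 was examined for the oxidised base 8-oxoguanine (OG) in HAP1 cells. The region was taken as all 1 kb bins of the deposited table that lie on chromosome 6 from position 28600001 to 33480000 of GRCh38. It holds 4880 bins of the 2835235 bins in the table, and no bin of the stretch was missing. Bins before position 31400001 were called the class I part (2800 bins), the next 1000 bins the class III part, and those from position 32400001 onwards the class II part (1080 bins). The members were defined by position and not by a filter on measured values, although earlier results of these data were known when they were chosen.

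OG-sequencing enriches DNA fragments that carry OG, and an input library of the same DNA gives the background. HAP1 is a near-haploid human line derived from the KBM-7 leukaemia line. The 4 genotypes were WT, cells without the MUTYH glycosylase (MUTYH-/), cells without the OGG1 glycosylase (OGG1-/) and cells without both (DKO), each untreated and grown under the same conditions. Each genotype was measured in 3 OG libraries with 3 matching input libraries, made from 2 clones, of which 1 was measured under both sample numbers R1 and R2 of the titles. Both DKO clones came from an OGG1-/ clone, so DKO and OGG1-/ are related by descent. The knockouts rest on short insertions or deletions, which a 1 kb bin cannot check. The 12 columns of the table carry the genotype and a number, but not the clone or the experiment. The p-values below therefore measure the spread between these columns, part of which comes from repeated sampling of 1 clone. The columns held 59598911 to 113911793 OG reads, or 21.0 to 40.2 reads per bin, and 27.7 to 35.8 input reads per bin. The value of a bin is its OG reads minus scaled input reads. Each column was divided by its mean over all bins, so that a relative signal of 1 is the genome average.

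The MHC holds the genes for the cell-surface molecules that present peptides to T cells. The class I part carries HLA-B, HLA-C and their relatives, whose products show peptides from inside the cell. The class II part carries the HLA-DR, HLA-DQ and HLA-DP genes together with the machinery that cuts, transports and loads peptides. The class III part between them is one of the most gene-dense stretches of the genome and encodes complement proteins, cytokines of the TNF family and heat shock proteins. Guanine is the base that is most easily oxidised, and guanines in runs are more easily oxidised than single ones. OGG1 removes OG that pairs with cytosine, while MUTYH removes adenine that was placed opposite OG during replication.

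To show the DNA behind the values, 4 stretches of the reference are given, with runs of at least 3 guanines (GGG, on the printed strand) in capitals. The promoters are the 250 bases before the RefSeq gene start (GRCh38.p14). They are those of TNF, a gene named for its role, of PSORS1C2, the protein-coding gene with the highest signal of the class I part, and of HLA-DRB5, the gene with the lowest signal of the class II part. The last stretch of 200 bases (GRCh38) lies between C4B and CYP21A2 in a bin with one of the 3 highest signals of the class III part. It holds the most GGG runs among stretches of this length in the highest bins, outside of untranslated exons.

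TNF, chr6:31575315-31575564, plus strand: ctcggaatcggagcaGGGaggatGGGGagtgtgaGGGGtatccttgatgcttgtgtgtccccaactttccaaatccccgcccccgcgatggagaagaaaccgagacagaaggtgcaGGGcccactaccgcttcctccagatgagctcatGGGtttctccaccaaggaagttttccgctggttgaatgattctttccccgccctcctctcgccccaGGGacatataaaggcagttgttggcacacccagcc
PSORS1C2, chr6:31139067-31139316, minus strand: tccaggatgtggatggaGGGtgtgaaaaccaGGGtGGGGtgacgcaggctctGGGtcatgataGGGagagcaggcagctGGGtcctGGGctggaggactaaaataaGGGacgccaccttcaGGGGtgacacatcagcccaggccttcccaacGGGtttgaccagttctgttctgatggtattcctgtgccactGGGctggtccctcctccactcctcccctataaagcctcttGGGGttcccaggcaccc
HLA-DRB5, chr6:32530288-32530537, minus strand: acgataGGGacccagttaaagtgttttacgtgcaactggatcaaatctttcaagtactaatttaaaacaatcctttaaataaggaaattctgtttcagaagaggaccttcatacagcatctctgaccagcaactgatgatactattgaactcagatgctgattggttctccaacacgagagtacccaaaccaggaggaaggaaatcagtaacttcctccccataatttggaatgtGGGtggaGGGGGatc
Class III bin, chr6:32036315-32036514, plus strand: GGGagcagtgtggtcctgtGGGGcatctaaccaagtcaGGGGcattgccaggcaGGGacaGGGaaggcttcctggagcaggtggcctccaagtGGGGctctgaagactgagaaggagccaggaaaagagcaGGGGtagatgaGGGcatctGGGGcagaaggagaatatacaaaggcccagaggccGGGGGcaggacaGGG

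The TNF stretch holds 6 GGG runs, that of PSORS1C2 12, that of HLA-DRB5 3 and the class III stretch 11. Of 35116 promoters of this length in the RefSeq table, 94.7% hold at least 1 run on the strand of the gene, with a median of 5. Of the 24400 stretches of 200 bases in the MHC region, 84.4% hold a run and 1% hold at least 11. The bin with the TNF promoter had a relative signal of 1.12 ± 1.24 (SD, n = 12 columns), and the bin with the PSORS1C2 promoter had 1.91 ± 1.97. The bin with the HLA-DRB5 promoter had 0.288 ± 0.88. In all 3 promoter bins the SD between columns exceeded the mean, so the comparisons below rest on averages over many bins.

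OG signal was above the genome average in the MHC as a whole and highest in the class III part. Over the 12 columns the relative signal of the region was 1.20 ± 0.0581 (SD). The class III part was at 1.498 ± 0.121, the class I part at 1.13 ± 0.0526 and the class II part at 1.09 ± 0.0579. The class III part lay above the class I part by 0.366 ± 0.0975 and above the class II part by 0.411 ± 0.103. Both differences were seen in 12 of 12 columns (two-sided exact sign-change permutation test, p = 0.000488, the smallest it can give; Benjamini-Hochberg adjusted over 3 part differences, 0.000732). The class I part exceeded the class II part by 0.0453 ± 0.0537 in 9 of 12 columns (exact permutation p = 0.0112, adjusted 0.0112). That small difference was 0.00108 after bins with few input reads were left out (exact permutation p = 0.946). In genome tiles of the same length, the class III part was higher than 94.2% of 2767 tiles of 1 Mb, whereas the class II part was higher than 67.8% of 2561 tiles of its length. Among the 96 tiles whose GC content lay within 1 point of that of the class III part, 55 were lower than it and the median was 1.486. Matched in the same way, the whole region was above 8 of 46 tiles of its length (median 1.26). The class I part was above 38 of 123 (median 1.18) and the class II part above 39 of 263 (median 1.19). The region, the class I part and the class II part thus lay below the median of their matched tiles.

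The class III part was the highest in each of the 12 columns, while the order of the class I and class II parts varied. In the class III part, the WT columns were at 1.504, 1.499 and 1.493, the MUTYH-/ columns at 1.67, 1.32 and 1.44, the OGG1-/ columns at 1.52, 1.63 and 1.59, and the DKO columns at 1.26, 1.61 and 1.44. In the class I part, the WT columns were at 1.14, 1.14 and 1.13, the MUTYH-/ columns at 1.11, 1.00 and 1.10, the OGG1-/ columns at 1.14, 1.21 and 1.17, and the DKO columns at 1.11, 1.18 and 1.16. In the class II part, the WT columns were at 1.04, 0.999 and 1.07, the MUTYH-/ columns at 1.13, 1.01 and 1.07, the OGG1-/ columns at 1.13, 1.15 and 1.13, and the DKO columns at 1.11, 1.17 and 1.04. The lowest class III value, 1.26 in a DKO column, was above the highest class I value, 1.21 in an OGG1-/ column. The WT columns were close to each other in the class I and class III parts, and the MUTYH-/ and DKO columns were the most spread.

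**Figure D1:**
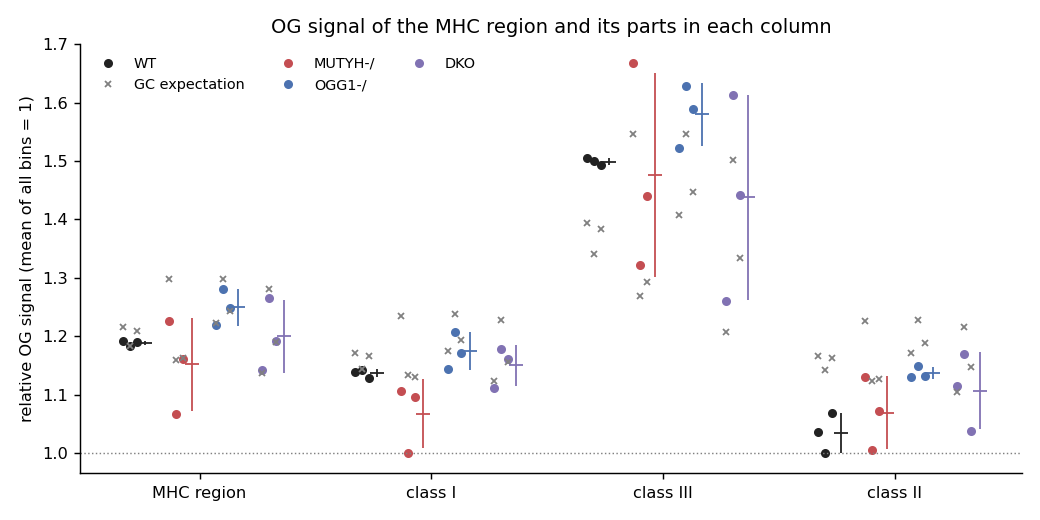
Relative OG signal (y axis, genome mean = 1) of the MHC region and its class I, class III and class II parts in the 12 columns. Filled points are columns, the dashes beside them are genotype means with SD (n = 3), and grey crosses are the signal that the GC content of the bins predicts in the same column; all 12 class III points lie above their crosses.

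The parts differ in base composition, which moves with OG signal across the genome. The mean GC content was 49.0% in the class III part, 43.8% in the class I part and 44.1% in the class II part, against 40.9% over all bins. The class III part held 17.9 CpG dinucleotides per kb, against 12.9 and 13.0 in the class I and class II parts and 9.83 over all bins. Over all bins the relative signal was 0.538 ± 0.111 under 35% GC and 1.73 ± 0.218 from 55 to 60% GC. An expected signal was therefore taken for each bin as the column's mean in 1 of 20 genome-wide strata of GC content.

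The class III part had more OG signal than the genome-wide mean of its GC strata, and the other parts had less. The test below asks whether that offset recurs across columns, not whether the part stands out among loci of like GC content. Among tiles of like GC content and length, the class III part was above 55 of 96. The class III part exceeded its expectation by 0.109 ± 0.0332 in 12 of 12 columns (exact permutation p = 0.000488, adjusted over 4 values 0.00195). The class I part lay at -0.0422 ± 0.0444 from its expectation, above it in 1 of 12 columns (exact permutation p = 0.00146, adjusted 0.00195). The class II part lay at -0.0796 ± 0.0436, also above in 1 of 12 columns (exact permutation p = 0.000977, adjusted 0.00195). Without the bins of few input reads, 49 of which lay in the class II part, this value was -0.0388 (exact permutation p = 0.0117, adjusted 0.0156). For the region as a whole the value was -0.0195 ± 0.0309 (exact permutation p = 0.0249, adjusted 0.0249), which was lost without bins of few input reads (-0.0107, exact permutation p = 0.344). When OG reads were divided by input reads, the class III excess was 0.00607 (exact permutation p = 0.0859), so it did not pass the test on that scale, and the class II deficit did not pass it either (-0.00915, adjusted p = 0.0859 in the same exact permutation test). Input reads moved with the parts as well. Relative input was 1.07 to 1.19 in the class III part over the 12 columns and 0.966 to 1.02 in the class II part. The part of input depth in the class III value was not tested.

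Within classes of similar GC content, class III bins stood above the genome average of that class from 40% GC upwards. Between 45 and 50% GC, 258 class III bins had a mean of 1.59 ± 0.176, against 1.42 ± 0.101 for all bins of the table, 1.42 ± 0.106 in the class I part and 1.35 ± 0.147 in the class II part. At 60% GC or more, 91 class III bins were at 1.80 ± 0.293 and 49 class II bins at 1.33 ± 0.254, with 1.53 ± 0.299 for all bins. Under 35% GC, where the class III part had 47 bins, its mean of 0.453 ± 0.163 was not above the 0.538 ± 0.111 of all bins.

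**Figure D2:**
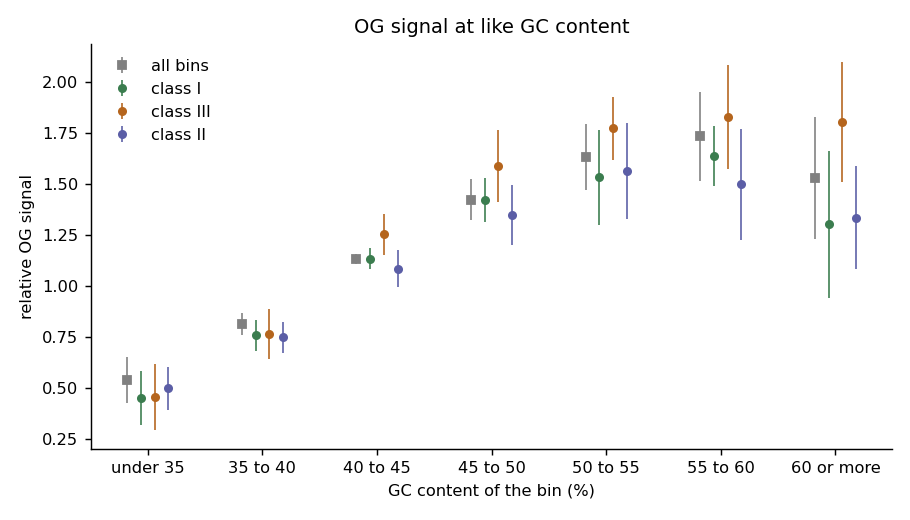
Relative OG signal (y axis) of bins grouped by GC content (x axis, %) for all bins of the table and for the class I, class III and class II parts. Points are means of 12 columns with SD; class III bins lie above the squares of all bins from 40% GC upwards, for example at 1.59 against 1.42 between 45 and 50% GC.

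Along the region, OG signal rose and fell over long stretches. In 48 complete windows of 100 kb the relative signal ran from 0.447 to 1.81 with a median of 1.14. The highest window lay at 31800001 to 31900000 in the class III part, with the heat shock genes, NEU1 and EHMT2, at 1.81 ± 0.200. The lowest window lay at 32500001 to 32600000 in the class II part, with HLA-DRB5 and HLA-DRB1, at 0.447 ± 0.086. In 3 windows, all in the class III part, every column was above its GC expectation, and in 2 windows, 1 of them that of HLA-DRB5 and HLA-DRB1, no column was. The matching shares of all windows of the genome were not worked out, so these counts are not read as a trait of the region.

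A second low stretch was the cluster of olfactory receptor genes in the class I part. The window at 29300001 to 29400000, with OR5V1, OR12D3 and OR12D2, had a relative signal of 0.565 ± 0.166, lower than all but 2.88% of the windows of the genome. The window of PPP1R10, DHX16 and MDC1 at 30600001 to 30700000 was the peak of the class I part at 1.65 ± 0.199. The window of HLA-B was at 1.05 ± 0.145, near the genome average. At the far end of the class II part, beyond the HLA genes, the window with TAPBP, DAXX and KIFC1 reached 1.66 ± 0.191.

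**Figure D3:**
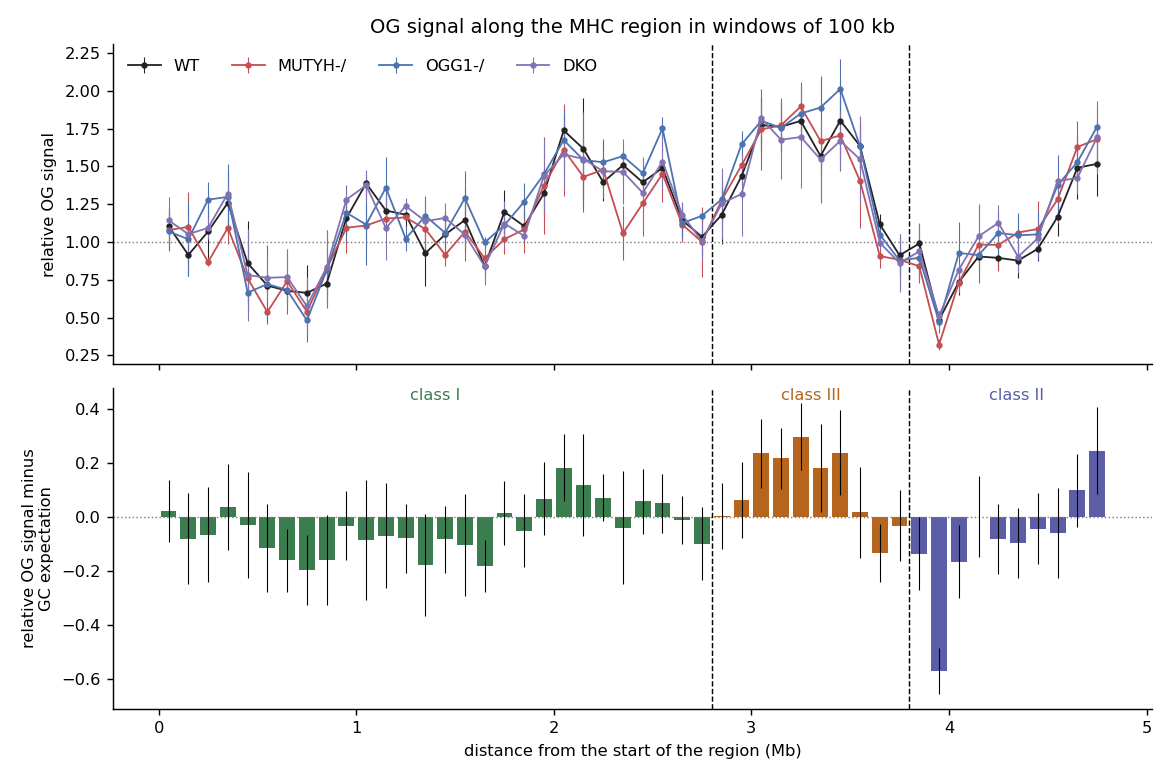
OG signal in 48 windows of 100 kb by distance from the start of the MHC region (x axis, Mb). The upper panel gives the relative signal of each genotype (mean and SD of 3 columns), the lower panel the mean of 12 columns minus the GC expectation with SD. Dashed lines divide the class I, class III and class II parts. The signal ranges from 0.447 at HLA-DRB5 and HLA-DRB1, where many bins had few input reads, to 1.81 in the class III part.

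For genes, the mean relative signal of the bins that overlap the gene and 1 kb upstream was used. Of the protein-coding genes of the region, 179 had at least 3 bins. Their median was 1.48, against 1.26 over 19557 protein-coding genes of the table, and 54.2% of them were above their GC expectation, against 61.4% of all protein-coding genes. The class III genes (69 genes) had a median of 1.69 with 75.4% above expectation, the class I genes (69 genes) 1.34 with 46.4%, and the class II genes (41 genes) 1.38 with 31.7%. Genes that overlap share bins and are not independent of each other.

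The HLA class I genes were near the genome average for protein-coding genes. The 6 HLA class I genes had a median of 1.30 and only 1 was above its GC expectation. HLA-E, which signals to natural killer cells, was the highest at 1.69 ± 0.559 (SD, n = 12 columns), and HLA-F was the lowest at 1.10 ± 0.318. Of the other peptide-presenting genes, HLA-B was at 1.16 ± 0.353 and HLA-C at 1.30 ± 0.631. These SDs are as large as the gaps between these genes. HLA genes resemble each other and differ between people, so reads of one can be lost or assigned to another.

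The 13 HLA class II genes had a median of 1.06, and 3 of them were above expectation. HLA-DRA, which encodes the constant chain of HLA-DR, was at 1.34 ± 0.342 and HLA-DQA2 was the highest at 1.47 ± 0.664. HLA-DRB1, the variable chain of HLA-DR, was at 1.06 ± 0.420. HLA-DRB5 was the lowest protein-coding gene of the region at 0.220 ± 0.178, where WT had 0.185 ± 0.213, MUTYH-/ had 0.0919 ± 0.0972, OGG1-/ had 0.253 ± 0.190 and DKO had 0.349 ± 0.174 (SD, n = 3). No column was above its expectation there. Input reads over HLA-DRB5 were also low, at 0.259 of the genome mean, so low OG signal and few mapped reads cannot be told apart for this gene. Of the 62 bins of the region with an input under 0.3 of the mean, 49 lay in the class II part.

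Antigen processing genes lay between the HLA genes and the class III genes. Their median was 1.42, with 1 of 5 above expectation. TAPBP, which holds the peptide transporter to the empty class I molecule, was the highest at 1.64 ± 0.352, and TAP2, a subunit of that transporter, the lowest at 1.14 ± 0.347. PSMB8 and PSMB9, subunits of the immunoproteasome, were at 1.45 ± 0.805 and 1.42 ± 0.604, and TAP1 at 1.38 ± 0.635. PSMB9 overlaps TAP1 and PSMB8, so these values share bins. The class I-like stress ligands MICA and MICB were at 1.29 ± 0.428 and 1.40 ± 0.297.

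The complement genes of the class III part were high as a group. Their median was 1.68 and all 4 were above expectation, with a median excess of 0.242. CFB, a protease of the alternative pathway, was at 1.84 ± 0.637 and C2, its counterpart in the classical pathway, at 1.65 ± 0.426. C4A and C4B, which encode the 2 forms of complement factor C4, were at 1.68 ± 0.336 and 1.69 ± 0.381. They are near-identical copies, so reads can be exchanged between them and their values are not independent. CYP21A2, the steroid hydroxylase gene beside C4B that has a pseudogene copy, was at 2.01 ± 0.699, STK19 at 1.71 ± 0.601 and the matrix protein gene TNXB at 1.65 ± 0.241.

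The heat shock genes had the highest median of the lists, 1.89, with 3 of 3 above expectation. HSPA1A and HSPA1B, which encode the stress-induced chaperone HSP70 and are also near-identical, were at 1.97 ± 0.591 and 1.75 ± 0.785, and HSPA1L was at 1.89 ± 0.762. The TNF family was more mixed, with 1 of 3 above expectation. LTB, which encodes lymphotoxin beta, was at 1.88 ± 0.930, LTA at 1.56 ± 0.566 and TNF at 1.40 ± 0.661. Each of them spans only 4 or 5 bins, and their SDs are accordingly wide.

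Among chromatin and transcription genes, 4 of 11 were above expectation with a median of 1.53. EHMT2, a histone H3 methyltransferase, was at 1.80 ± 0.333, DAXX, a histone chaperone, at 1.85 ± 0.478, and POU5F1, the pluripotency factor OCT4, at 1.78 ± 0.387. RXRB, a nuclear receptor, was the lowest at 1.05 ± 0.559. Of the DNA repair genes, MSH5 was at 1.89 ± 0.261 and above its expectation in 11 of 12 columns, MDC1 at 1.499 ± 0.360 and the TFIIH subunit gene GTF2H4 at 1.51 ± 0.544. The TRIM ubiquitin ligase genes ranged from 1.06 to 1.42 with a median of 1.17, and 4 of 7 were above expectation. Of the other listed genes, NEU1, the lysosomal sialidase, was the highest at 2.18 ± 0.591 and above expectation in 11 of 12 columns, and BTNL2 the lowest at 1.05 ± 0.361. In all, 12 of these 20 genes were above expectation and their median was 1.55.

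The 15 olfactory receptor genes had the lowest median of the lists, 0.739, and 2 of them exceeded 1. They lie in AT-rich DNA with a median GC content of 36.7%, and 3 of 15 were above the expectation for that content. OR5V1, which spans 80 bins, was at 0.538 ± 0.162 and below its expectation in every column. OR12D3 was the lowest protein-coding gene of the class I part at 0.392 ± 0.736, and OR2I1P the highest receptor gene at 1.22 ± 0.427. The highest class III gene was LY6G5B at 2.19 ± 0.703 and the lowest TSBP1, a long gene at the border with the class II part, at 0.817 ± 0.120. The highest class II gene was ENSG00000285064, which overlaps DAXX, at 2.03 ± 0.314, above its expectation in 12 of 12 columns.

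**Figure D4:**
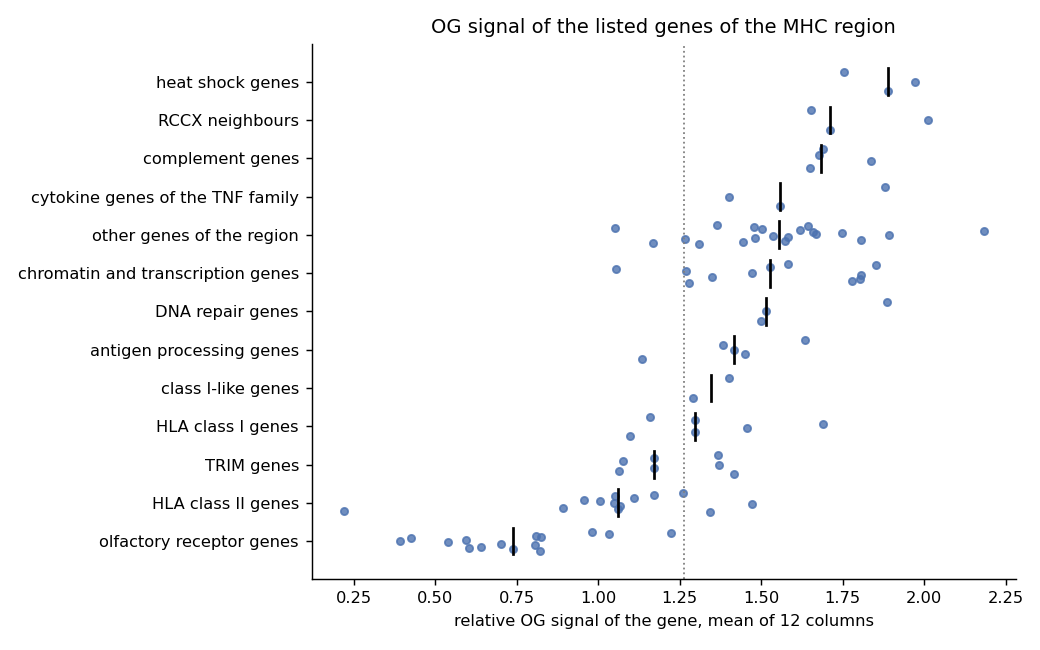
Relative OG signal (x axis, mean of 12 columns) of the genes of each list; every point is a gene and the black bar is the median of the list. The dotted line marks the median of all protein-coding genes, 1.26; the olfactory receptor genes have a median of 0.739 and the heat shock genes 1.89.

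Bodies of protein-coding genes had a higher relative signal than the DNA between these genes. Bins in the body of a protein-coding gene (1784 bins) had a relative signal of 1.39 ± 0.0948. Bins with a start site (160 bins) were at 1.40 ± 0.175, and bins between protein-coding genes (2936 bins) at 1.07 ± 0.0431. The last group, called bins between genes, includes noncoding genes and pseudogenes. Against GC content, gene body bins were at 0.0409 ± 0.0314, start site bins at -0.0805 ± 0.143 and bins between genes at -0.0528 ± 0.0361, the last below expectation in every column. The parts differed in this. Gene body bins were at 0.136 ± 0.0365 in the class III part (above in 12 of 12 columns), 0.00364 ± 0.0729 in the class I part (6 of 12) and -0.0483 ± 0.0698 in the class II part (3 of 12). Start site bins were at 0.0569 ± 0.120 in the class III part (10 of 12), -0.118 ± 0.234 in the class I part (5 of 12) and -0.232 ± 0.188 in the class II part (2 of 12). In the class III part, 65% of the bins lay in gene bodies, against 27.1% in the class I part and 34.7% in the class II part. Bins between genes were at 1.33 ± 0.105 in the class III part, 1.07 ± 0.0478 in the class I part and 0.957 ± 0.0589 in the class II part. Their mean GC content was 45.4%, 42.8% and 41.4% in the same order. Against GC content they were at 0.0602 ± 0.0818 (above in 8 of 12 columns), -0.0573 ± 0.0429 (0 of 12) and -0.0889 ± 0.0557 (1 of 12). The class III part was thus also the highest outside of protein-coding genes, although its bins there were not above expectation in every column.

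The 3 highest bins of each part lay in or beside protein-coding genes, in a pseudogene, or in no gene. In the class III part they were 2 neighbouring bins at and just beyond the end of C4B, 32035001 to 32036000 and 32036001 to 32037000, at 3.52 ± 1.13 and 3.48 ± 1.98, and a bin in LY6G5B at 3.46 ± 1.55. The stretch printed for the class III part comes from the second of these. In the class I part, the bins at 31378001 and 31377001 in the pseudogene FGFR3P1 were at 3.28 ± 1.30 and 3.04 ± 1.28 and above 1 in 12 of 12 columns, followed by a bin at TCF19 and POU5F1 at 3.03 ± 2.11. In the class II part, bins in the kinesin gene KIFC1 and in VPS52 were at 3.34 ± 1.72 and 3.14 ± 1.17, and a bin at 33229001 that overlaps no gene was at 2.94 ± 1.96. The lowest bins had a GC content of 29.1 to 39.4%, and the lowest class I bin, at 30433001, was at -0.528 ± 0.386, where scaled input exceeded OG reads.

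A bin was called OG-enriched where 2 or more of the 3 columns of a genotype put it at or above their 95th percentile. WT had 98 such bins in the MHC (2.01%), MUTYH-/ had 90 (1.84%), OGG1-/ had 130 (2.66%) and DKO had 102 (2.09%). The share over all bins of the table was 1.34%, 1.33%, 1.54% and 1.3%. Shares were highest in the class III part, with 4%, 4.5%, 5.7% and 3.7% of its bins in the same order. The class I part had 1.64%, 1.04%, 2.07% and 1.71%, and the class II part 1.11%, 1.48%, 1.39% and 1.57%. In numbers, the class I part held 46, 29, 58 and 48 of these bins and the class III part 40, 45, 57 and 37. OG-enriched bins of the region had a mean GC content of 50.8 to 51.4%, against 44.8% in the other bins. When the GC expectation was subtracted first, 57, 39, 71 and 56 bins of the region met the rule. These were 1.17%, 0.799%, 1.45% and 1.15% of the region, against 1.05%, 1.08%, 1.12% and 1.04% of all bins. For the region as a whole, most of the gap to the genome was gone and MUTYH-/ lay below it. The class III part stayed above the genome in each genotype, with 2.2%, 1.3%, 2.7% and 1.8% of its bins. The class I part had 1%, 0.607%, 1.21% and 0.929%, and the class II part 0.648%, 0.833%, 0.926% and 1.11%.

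The enriched bins of the region were counted by the number of genotypes that shared them. Of the 387 bins enriched in at least 1 genotype, 356 were enriched in 1, 29 in 2, 2 in 3 and 0 in all 4. The shares of all bins enriched in exactly 1, 2 or 3 genotypes were not worked out, so this split is not read as a trait of the region. Over the table, 888 bins (0.0313%) were enriched in all 4, a share at which a region of this size would hold very few. Both bins enriched in 3 genotypes, WT, MUTYH-/ and OGG1-/, were neighbours at and just beyond the end of C4A, 32002001 to 32004000, at 3.35 ± 0.935 and 3.33 ± 1.96. They have the same place beside C4A as the highest class III bins beside C4B, and the reads of both places may be exchanged.

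**Figure D5:**
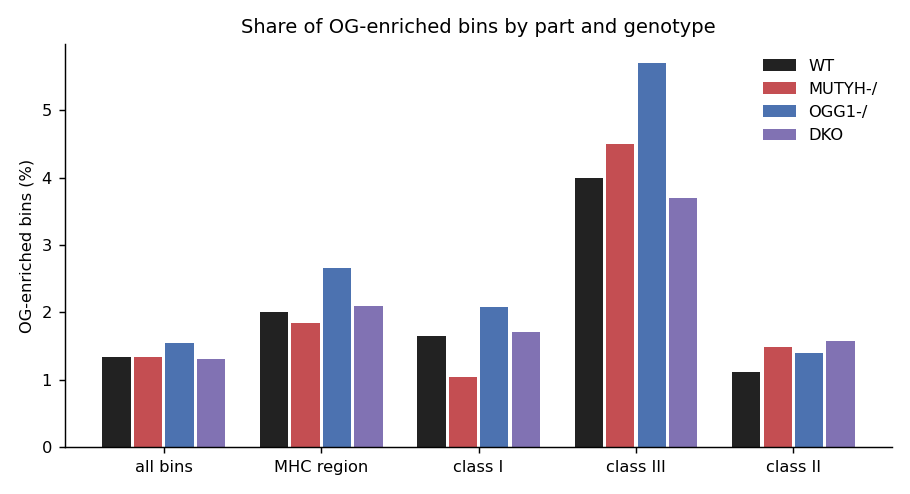
Share of OG-enriched bins (y axis, %) over all bins of the table, in the MHC region and in its 3 parts, with 1 bar per genotype. The class III bars reach 3.7 to 5.7%, against 1.3 to 1.54% over all bins; there is no error bar because each share combines the 3 columns of a genotype.

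OGG1-/ columns were above the WT columns in every part, but the exact permutation test of 3 against 3 columns cannot give a p below 0.1. The relative signal of the region was 1.25 ± 0.0312 in OGG1-/ and 1.19 ± 0.00401 in WT (SD, n = 3 columns), and the groups did not overlap. The difference was 0.0376 in the class I part, 0.0807 in the class III part and 0.102 in the class II part, each without overlap (two-sided exact permutation test, p = 0.1, the smallest it can give; adjusted over 12 comparisons with WT, 0.24). MUTYH-/ columns were below WT in the class I part by 0.0692 without overlap (exact permutation p = 0.1, adjusted 0.24), and DKO differed from WT by 0.0111 in the region (exact permutation p = 0.7). After the GC expectation was subtracted, OGG1-/ differed from WT by -0.00416 in the class I part and by -0.0132 in the class III part, whereas in the class II part a difference of 0.0638 remained (exact permutation p = 0.1, adjusted 0.514).

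With the genotypes pooled by OGG1 status, OGG1-deficient columns (OGG1-/ and DKO) had more signal in the class I part. They were at 1.16 ± 0.0329 and the OGG1-proficient columns (WT and MUTYH-/) at 1.10 ± 0.0534 (SD, n = 6). DKO alone exceeded WT there by only 0.0133, which did not pass (exact permutation p = 0.5, adjusted over 12 comparisons 0.7). The proficient group also holds the low MUTYH-/ columns, with a class I mean of 1.07 against 1.14 for WT. The pooled difference of 0.0601 passed an exact permutation test that exchanged columns within MUTYH status (p = 0.005, the smallest it can give, adjusted over 4 parts, 0.02). That test takes the columns as independent. However, both DKO clones descend from an OGG1-/ clone, and 1 clone of each genotype was sampled under both sample numbers. In the class II part the difference was 0.0702 (exact permutation p = 0.04, adjusted 0.08), in the class III part 0.0212 (exact permutation p = 0.745). Over all 4 genotypes the class I part also differed (exact permutation of an F statistic, p = 0.0116, adjusted 0.0465). Neither class I call held after the GC expectation was subtracted, where the difference by OGG1 status was 0.0378 (exact permutation p = 0.17) and the p over the genotypes was 0.084. A fit with the column number as a block gave p = 0.0312 for OGG1 status in the class I part (exact permutation test, adjusted 0.125). The OGG1 status call was also lost when MUTYH-/ column 2, DKO column 2 or any 1 of the WT columns was left out, with a difference of 0.0431 to 0.0614 and an adjusted p of 0.08 to 0.12 (exact permutation test). The call over the genotypes was lost in 10 of 12 such tests. By MUTYH status the class I part differed by -0.0468 (exact permutation p = 0.045, adjusted 0.18).

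At the level of single bins, OGG1-/ had a larger share of gains in the MHC than over all bins, a difference that was not tested, while the other shares of differential bins lay closer to those of the genome. An OG-differential bin had an unadjusted p of at most 0.01 in limma and a log2 fold change beyond 0.5 against WT. Of the 4855 bins tested in the region, MUTYH-/ had 17 gains (0.35%) and 19 losses (0.391%), against 0.3% and 0.322% of all bins tested. DKO had 10 gains (0.206%) and 19 losses (0.391%), against 0.296% and 0.312%. OGG1-/ had 27 gains (0.556%) and 14 losses (0.288%), against 0.299% and 0.256%. The OGG1-/ gains were 14 in the class I part, 4 in the class III part and 9 in the class II part, and they fell to 10 to 15 when any 1 OGG1-/ column was left out. The share of all bins with a column left out is not given. A loss particular to the region therefore cannot be told apart from fewer calls over all bins. No bin of the region passed Benjamini-Hochberg adjustment over all bins in limma, where the smallest adjusted p was 0.985. At an unadjusted p under 0.05 there were 238, 206 and 247 bins in MUTYH-/, OGG1-/ and DKO, which is 4.90%, 4.24% and 5.09% of the region against 4.39%, 4.10% and 4.31% of all bins.

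Some of these bins lay in listed genes, with adjusted p from 0.985 to 0.998 in limma, so none is a call of its own. A bin in the POU5F1 gene at 31177001 had a relative signal of 2.70 in MUTYH-/ and 2.55 in OGG1-/ against -0.0391 in WT, a log2 difference of 3.59 and 3.52. A bin in EHMT2 at 31881001 was at 3.34 in MUTYH-/ and 3.71 in OGG1-/ against 0.767 in WT. A bin in TAP2 at 32836001 was at 1.90 in OGG1-/ and 2.34 in DKO against -1.07 in WT, and a bin in HLA-F at 29725001 was at 3.34 in MUTYH-/ and 3.78 in DKO against 0.999 in WT. Each of these pairs shares the same WT columns, so the second value is not independent of the first. A bin in MSH5 at 31753001 was lower in DKO, at 1.54 against 5.37 in WT.

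In windows of 10 kb, 0 of 488 windows of the region were called in any knockout at an adjusted p under 0.05 (limma on the linear scale), as were 0% of all 283637 windows in MUTYH-/, OGG1-/ and DKO. At an unadjusted p under 0.05 there were 28, 24 and 30 windows of the region, or 5.74%, 4.92% and 6.15% against 5.07%, 4.84% and 5.06% of all windows. The standard error of a difference had a median of 0.364. Windows in which all 3 OGG1-/ columns were above all 3 WT columns numbered 30 of 488, and those below 12, against 5.03% and 5.21% of all windows. The numbers were 18 and 19 in MUTYH-/, against 4.87% and 4.86%, and 32 and 20 in DKO, against 5.06% and 4.86%. By part, the shares above and below WT in MUTYH-/, OGG1-/ and DKO were as follows. The class I part (280 windows) had 2.5% and 4.29%, 5.71% and 2.86%, and 7.14% and 5.36%. In the class III part (100 windows) they were 4% and 4%, 7% and 3%, and 4% and 4%. The class II part (108 windows) had 6.48% and 2.78%, 6.48% and 0.926%, and 7.41% and 0.926%. These splits by part were not tested.

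No gene of the region was called in any knockout in the limma test over genes (0 of 345, adjusted p from 0.978 upwards, called at under 0.05). Over all 47791 genes, 0% were called in MUTYH-/, 0% in OGG1-/ and 0.00209% in DKO. At an unadjusted p under 0.05 there were 25, 17 and 15 genes of the region, or 7.25%, 4.93% and 4.35% against 4.32%, 4.74% and 5.02% of all genes. Some genes of the lists with an unadjusted p under 0.05 are given as values only. PSMB9 was at 1.90 ± 0.478 in OGG1-/ and 1.78 ± 0.499 in DKO against 1.00 ± 0.203 in WT, with no overlap of either with WT, and at 0.986 ± 0.645 in MUTYH-/. HLA-DQB2 was at 1.53 ± 0.407 in MUTYH-/ against 0.461 ± 0.408 in WT, and HLA-DOA, which regulates peptide loading, at 1.63 ± 0.227 in OGG1-/ against 0.376 ± 0.440. TRIM26 was at 0.915 ± 0.143 in MUTYH-/ against 1.47 ± 0.172 in WT.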

How the data were processed

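OG-sequencing of HAP1 genomic DNA gave 12 OG libraries and 12 input libraries. DNA was fragmented by enzyme with antioxidants. Per the labels and the methods, the authors trimmed reads with cutadapt (2.8), mapped them to GRCh38 with Bowtie2 (2.3.5.1), marked duplicates, counted reads in 1 kb bins with bedtools, removed blacklisted bins, and subtracted input scaled by signal extraction scaling. The deposited table holds this score per bin on a linear scale, and 22.0 to 24.7% of the values of a column are below 0. Whole OG and input reads were recovered from the score for 99.9994% or more of the bins. Intervals and spreads cover these columns only, and counting error is a large part of a single bin.

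Values were divided by the column mean. Genes came from GENCODE (bins of the body and 1 kb upstream, at least 3 bins). Bins were fitted with limma (3.58.1, R 4.3.3) on log2(value + 1), with values below 0 set to 0, columns scaled to the mean total, and a value above 0 in at least 3 columns. A fold change on this scale understates changes of low bins. The estimated prior weight was infinite there, so each bin took the variance of the trend. Windows and genes were fitted with limma on the linear scale. Exact permutation tests used Python 3.11.15 with numpy 2.4.6. P-values were adjusted by Benjamini-Hochberg. Scripts were tested on simulated data. Members, lists and tests were chosen with earlier results of these data known. Named genes were those of the lists, the highest and lowest protein-coding gene, the 3 highest and lowest bins of each part, and the extreme 100 kb windows. Genes and bins given beside the limma results, and the bins enriched in 3 genotypes, were chosen after their values were seen. Columns with the same number were no more alike than others (mean correlation of deviations -0.0213 for the same number and 0.011 for other numbers). This comparison cannot decide whether samples pair by experiment, because the column numbers are not tied to an experiment. Alternatives are in the closing section, and the boundaries of the parts, scalings, filters and left-out columns were varied.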

Additional observations from a re-analysis of the deposited data

Results flagged for a closer look

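In the class I part, every MUTYH-/ column was below the WT mean and every OGG1-/ column was above it. The MUTYH-/ columns differed from the WT mean by -0.137 to -0.0302 and the OGG1-/ columns by 0.00737 to 0.0711, and the means of these differences lay 0.107 apart. The difference between the knockouts was not tested. Groups of 3 columns were too small to look for single columns that stand apart.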

How the results depend on the processing

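Single bins vary between columns by about their own mean, and 3 columns a genotype from 2 clones limit every comparison of genotypes. The class III excess over GC content and the differences of the class III part from the other parts kept their direction under every alternative run, and the excess lost its call only for the ratio of OG to input reads. Beside the values below, 516 results with 1 column left out and 228 under other alternatives kept direction and call. Leaving out bins of low input was added after the data were seen. The causes of the changes were not tested.

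Without scaling (OG reads minus scaled input reads per bin), the region and the class I, III and II parts were at 10.4, 9.80, 13.0 and 9.42, with the ratio of OG to input reads at 1.03, 1.02, 1.08 and 1.02, and scaled to the median at 1.31, 1.24, 1.64 and 1.19. The value minus GC expectation was -0.0107 in the region without bins of low input, and 0.00607 (class III) and -0.00915 (class II) for the ratio. Class I minus class II was 0.0319 with boundaries 100 kb up and 0.00108 without bins of low input.

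Without scaling, MUTYH-/ minus WT was 0.897, 0.552 and 1.39 reads in the region, class I and class III, DKO minus WT 1.87 in class III, and MUTYH status 0.197, 0.142 and 0.0314 in the region, class I and class III. Scaled to the median, DKO minus WT was -0.0387 in the region and -0.0344 in class I, OGG1 status -0.0128 in class III and MUTYH status -0.0168 in class II. With values below 0 set to 0, DKO minus WT was -0.00334 in the region and MUTYH status -0.00612 in class II. After GC centring, OGG1-/ minus WT was -0.00416 in class I and -0.0132 in class III, and OGG1 status -0.0148 in class III.

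In class I, the exact permutation p over the genotypes was 0.084 after GC centring, 0.0953 without scaling, 0.0394 for the ratio (adjusted 0.0965) and 0.0844 scaled to the median. OGG1 status there was 0.0378 after GC centring, 1.80 without scaling, 0.0160 for the ratio, 0.0381 scaled to the median, 0.0380 with values below 0 set to 0, and 0.0601 with the replicate block, all with the call lost. The replicate block, on numbers that are not tied to an experiment, changed no other call.

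For WT, MUTYH-/, OGG1-/ and DKO, OG-enriched bins of the region numbered 5, 8, 6 and 5 at the 99th percentile. These were 0.102%, 0.164%, 0.123% and 0.102% of the region, against 0.145%, 0.145%, 0.182% and 0.136% of all bins. Only MUTYH-/ lay above the genome there. If all 3 columns were required, there were 6, 6, 11 and 6. Their shares were 0.123%, 0.123%, 0.225% and 0.123%, against 0.102%, 0.0995%, 0.140% and 0.0879% of all bins. After GC centring there were 57, 39, 71 and 56, with the shares given in the results. OG-differential losses were 31 without filter, 9 without scaling and 35 after GC centring in MUTYH-/, 8 without scaling and 22 after GC centring in OGG1-/, and 8 without scaling in DKO. Gains were 35 after GC centring in MUTYH-/, and 19 without filter, 21 without scaling and 23 after GC centring in DKO. Shares of all bins called differential under these settings are not given, so these counts are not set against the genome.

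With 1 column left out, MUTYH-/ minus WT ranged from -0.0742 to 0.00551 in the region and -0.118 to 0.0542 in class III. DKO minus WT ranged from -0.0217 to 0.0398 in the region, -0.000928 to 0.0329 in class I and -0.148 to 0.0277 in class III. OGG1 status ranged from 0.0332 to 0.0731 in the region, 0.0431 to 0.0699 in class I, -0.0223 to 0.0689 in class III and 0.0544 to 0.0874 in class II, and MUTYH status from -0.0133 to 0.0194 in class II. The p over the genotypes in class I ranged from 0.00916 to 0.0958 (exact permutation test). OG-differential gains ranged from 3 to 27 in MUTYH-/, 10 to 32 in OGG1-/ and 5 to 31 in DKO, and losses from 8 to 39, 6 to 18 and 9 to 33. The matching shares of all bins are not given, so these ranges are not set against the genome.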
